A study of Mus musculus with 6 samples.

Results

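Lymphatic endothelium is the thin cell lining of the vessels that return tissue fluid and immune cells from the lung to the blood. It was examined here in droplet single-cell RNA-seq of lungs from 6 male C57BL/6 mice aged 21 months. Lymphatic barcodes were chosen by their own readout: raw UMIs (unique molecular identifiers, 1 per captured transcript) of Prox1 of at least 1, of Mmrn1 plus Reln of at least 2, of Flt4 of at least 1, and none of Ptprc, Pdgfra or Epcam. The rule was applied where a barcode held 500 or more genes, 1000 or more UMIs and no more than 15% of UMIs from mitochondrial genes, and it gave 1041 members of 88616 barcodes past the cell filter and 94392 barcodes in all. The genotype p16-CreERT2/R26-LSL-DTR applied to 3 libraries, those labelled p16-DTR. There the p16 promoter drives CreERT2, which tamoxifen switches on, and the recombined Rosa26 allele then makes a diphtheria toxin receptor. The 3 libraries labelled control came from p16-CreERT2 mice, which carry the Cre allele without the receptor. Every mouse had 5 days of tamoxifen (TAM), a gap of 2 weeks, 5 days of diphtheria toxin (DT) and 2 weeks of recovery, so no untreated mouse entered any comparison. Each library came from 1 lung tissue, with 20000 sorted CD45-negative and 9000 CD45-positive cells mixed, so the shares of barcodes follow this mixture and not the lung. The 3 libraries of a group are numbered samples, and p-values measure the spread between them.

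Prox1 is the transcription factor that sets and keeps lymphatic identity. Flt4 encodes VEGFR3, the receptor of the lymphatic growth factors VEGF-C and VEGF-D. Initial lymphatics take up fluid and leukocytes through flap-like junctions and draw in dendritic cells with the chemokine CCL21. Collecting lymphatics carry valves, whose formation needs Foxc2, Gata2 and Itga9.

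The libraries labelled p16-DTR gave 183, 166 and 187 lymphatic barcodes, and those labelled control gave 212, 131 and 162. Median UMIs per lymphatic barcode lay between 13482 and 14047 in the 6 libraries, and the summed lymphatic UMIs between 1934047 and 3178994 per library. Between 59 and 94 barcode sequences were shared by any 2 libraries, and no lymphatic barcode was shared. Each pair of libraries of 1 group differed beyond counting noise (chi-square per degree of freedom 2.81 to 4.73). No label names a sort, dissociation or library preparation batch, so none could be entered in a fit.

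The genes of the rule describe the members and test nothing. Members held a median of 10 Prox1, 39 Mmrn1, 29 Reln and 13 Flt4 UMIs, and 53 of them passed on a single Prox1 UMI. Just outside, 79 barcodes missed only the Prox1 condition, at a median of 4445 UMIs and 9 UMIs of Mmrn1 plus Reln. Another 56 missed only the Mmrn1 plus Reln condition and 17 only that of Flt4. The negative genes removed more: 153 barcodes held Ptprc (median 1 UMI), 117 held Pdgfra (median 1 UMI) and 4 held Epcam, with all the other conditions met. Those held out by Ptprc alone had a median of 64 UMIs of Mmrn1 plus Reln, against 72 in the members.

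The members carried lymphatic genes that the rule did not use. Ccl21a, the chemokine that draws CCR7-bearing dendritic and T cells into lymphatics, stood at 21493.5, 20464 and 17940 CPM (counts scaled to a library sum of 1000000 UMIs) in libraries labelled p16-DTR and at 21839, 24356 and 20733 CPM in those labelled control. In blood endothelium the same gene did not exceed 4.59 CPM in any library. Blood endothelium means barcodes with Cdh5, Cldn5 and Pecam1 UMIs, no Prox1, Ptprc, Pdgfra or Epcam and fewer than 2 UMIs of Mmrn1 plus Reln (24537 barcodes), and it includes a venous gate with Slc6a2 and Vwf (3351 barcodes). The Ccl21a locus has near-identical copies on chromosome 4, and the entry used lies at 42772860 to 42773993 on the minus strand (mm10). Another copy on that chromosome, Gm21541 (41903610 to 41904743), was listed at 518 to 783 CPM in lymphatic sums. Reads of these copies can be assigned to the wrong one, so the split between Ccl21a and Gm21541 is uncertain.

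Podoplanin (Pdpn), a membrane glycoprotein of lymphatic endothelium, stood at 290 to 412 CPM in lymphatic sums and at 0.548 to 1.91 CPM in blood endothelium. Lyve1, the hyaluronan receptor often used to stain lymphatics, did not separate the endothelia in these lungs. It stood at 867 to 1855 CPM in lymphatic sums, at 718 to 1245 CPM in blood endothelium, and its mean was 1379 against 976 CPM. Cdkn1a, the p21 cell cycle inhibitor, was lower in lymphatic sums (175 to 240 CPM) than in blood endothelium (439 to 941 CPM). Hbegf, the mouse counterpart of the toxin receptor, stood at 2.08 to 5.28 CPM in lymphatic sums and at 23.7 to 50.1 CPM in blood endothelium. The comparison with blood endothelium carries no test, because measured transcripts chose both sets.

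**Figure D1:**
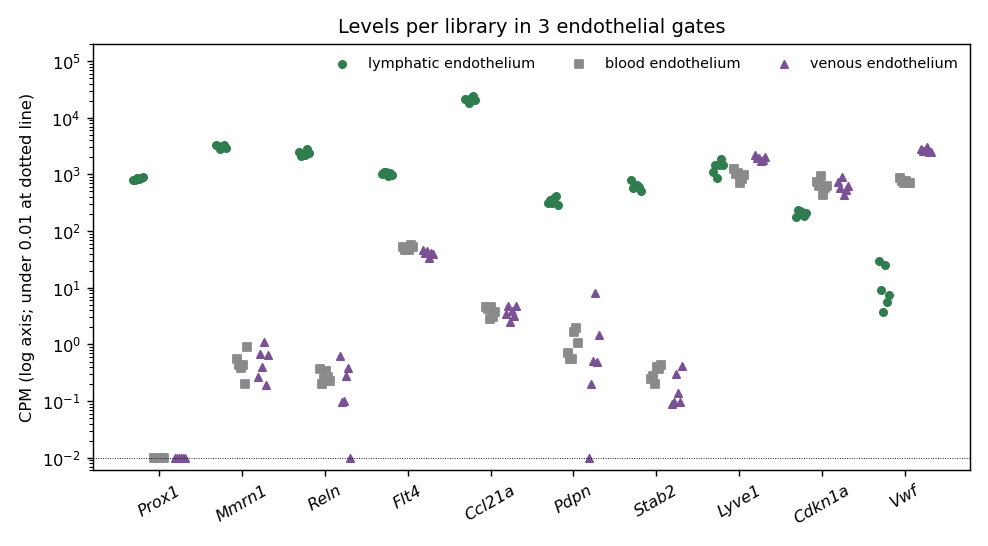
Level of 10 genes in each of the 6 libraries (CPM of summed UMIs, log axis) for lymphatic, blood and venous endothelium; 0 is drawn at the dotted line. Prox1, Mmrn1, Reln and Flt4 belong to the rule, while Ccl21a, Pdpn and Stab2 separate without having been used, and Lyve1 does not separate.

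Among genes of at least 50 CPM in every lymphatic sum, 403 of 3576 stood at least 2-fold higher in the lowest lymphatic library than in the highest blood endothelial one. The largest ratios, after the Ccl21 copies, belonged to Pld5, the transcription factor Tbx1, Slc45a3, the scavenger receptor Stab2, Apba2, neurotensin (Nts), pentraxin 3 (Ptx3) and the transcription factor Maf. Tbx1, which is needed for lymphatic growth, stood at 239 to 316 CPM against at most 0.156 CPM in blood endothelium. Maf stood at 1119 to 1739 CPM against at most 1.64 CPM. Stab2, which clears hyaluronan from lymph, stood at 508 to 793 CPM against at most 0.432 CPM.

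A channel and a guidance molecule followed in the same ranking. Kcnn3, a calcium-activated potassium channel, stood at 519 to 608 CPM in lymphatic sums and at most at 1.28 CPM in blood endothelium. Sema3d, a secreted semaphorin, stood at 724 to 1077 CPM against at most 1.85 CPM. The first 25 also held Susd4, Pcsk6, Thy1, the intracellular fibroblast growth factor homologues Fgf12 and Fgf13, Srgap3, Tenm3, Gm525, Clca2, the mannose receptor Mrc1, the Notch regulator Dtx1 and Plce1. Mrc1, which macrophages also express, stood at 672 to 770 CPM and made up most of the macrophage marker sum in lymphatic barcodes (712 to 815 CPM). Of the 7 macrophage and monocyte markers, 6, Mrc1 among them, were above 0 in lymphatic sums, and Marco was at 0 UMIs in all 6 libraries.

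The reverse ranking was led by Slc6a2, the noradrenaline transporter of pulmonary veins, at no more than 2.82 CPM in lymphatic sums and at least 207 CPM in blood endothelium. Vegfc, the ligand of the Flt4 receptor, stood at 1.29 to 7.39 CPM in lymphatic sums, at 272 to 374 CPM in blood endothelium and at 963 to 1368 CPM in the venous gate. Vwf, the von Willebrand factor, stood at 3.74 to 29.6 CPM against at least 694 CPM. The other genes were Samd5, Sema3c, Hpgd, Samd12, Nipal2, Palmd, Adrb1, Nostrin, Pde3a, Tspan7, Slc24a4 and Gcnt2, and 467 of 3707 genes reached 2-fold in this direction. Sema3c and Hpgd were not near 0 in lymphatic sums (46.0 to 163 and 50.2 to 146 CPM), and 1007 of the 1041 lymphatic barcodes held fewer than 10 UMIs of Hpgd, Sema3c, Flt1 and Foxf1 per 10000 UMIs.

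Lists of genes by role were read next, counting the members that passed the filter on low counts in lymphatic sums, which favours genes high there, and leaving out the genes of both gates. Of all 11026 such genes, 29.0% lay wholly above blood endothelium over the 6 libraries and 17.1% wholly below. Of 14 lymphatic transcription factors, 9 lay wholly above and 2 wholly below. Nr2f2, which with Prox1 sets venous and lymphatic fate, averaged 815 ± 79.4 CPM (SD, n = 6) against 49.9 CPM. Foxp2 averaged 270 ± 55.2 CPM against 0.722 CPM. Of 18 surface and secreted markers, 15 lay above and none below, among them Nrp2, the VEGF-C co-receptor, at 1451 ± 76.5 CPM against 42.1 CPM. Of 18 collecting vessel and valve genes, 10 lay above and 7 below. Itga9, an integrin of the valve leaflets, averaged 780 ± 120 CPM, and the gap junction gene Gja1 averaged 587 ± 37.8 CPM against 3.03 CPM. Gja4, another gap junction gene, lay wholly below, at 32.0 ± 10.5 CPM against 124 CPM. The valve regulator Foxc2 was low at 21.5 ± 5.98 CPM.

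Antigen presentation genes lay on the other side. Of 16 measured MHC class I genes, 14 lay wholly below blood endothelium, and 7 of 8 MHC class II genes did, beside 17.1% of all genes. Cd74, the class II invariant chain, averaged 117 ± 41.5 CPM against 869 CPM. Of 29 interferon response genes, 14 lay below and 2 above, beside 17.1% and 29.0%. Il7, the survival factor of naive T and innate lymphoid cells, averaged 128 ± 30.3 CPM in lymphatic sums against 3.89 CPM in blood endothelium.

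The members were not uniform in Lyve1. At 10 Lyve1 UMIs per 10000 UMIs, a division chosen after the values were seen, 35.4% of the 1041 barcodes were Lyve1-high. The division cuts a range and does not define a type, and 245 of the 1041 barcodes lay within 2-fold of it. Depth was alike: medians lay between 13582 and 14504 UMIs per barcode on the Lyve1-high side and between 12445 and 14320 on the other. Since Lyve1 chose the sides, the values below are a description.

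Lyve1-high barcodes carried guanylate cyclase subunit Gucy1a1 at 69.5 to 137 CPM against 0.924 to 14.5 CPM on the Lyve1-low side. The scavenging chemokine receptor Ackr3 stood at 141 to 239 CPM against 14.9 to 34.2 CPM. Fgl2, a secreted fibrinogen-like protein, stood at 1113 to 1735 CPM against 231 to 430 CPM. Every one of the 6 libraries showed these separations without overlap. The mechanosensitive channel Piezo2 stood at 379 to 683 CPM against 80.3 to 164 CPM, and Igfbp5, an insulin-like growth factor binding protein, at 815 to 1744 CPM against 49.9 to 336 CPM. The claudin of valve-bearing vessels, Cldn11, averaged 17.2 ± 5.69 CPM against 2.89 ± 1.37 CPM (SD, n = 6). Of 19 collecting vessel and valve genes, 2 (Cldn11 and Efnb2) lay wholly on the Lyve1-high side and none on the other. Of all 11032 genes, 283 (2.57%) lay wholly on the Lyve1-high side and 288 (2.61%) on the other. The ranking also held Tnxb, Pdlim4, Ptn, Serping1, Postn, Htr2b, Serpine2, Dapk1, Gucy1a2 and Psen2.

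Lyve1-low barcodes carried more of the clearance receptor Stab2, at 686 to 986 CPM against 199 to 394 CPM. Npnt, the nephronectin that binds integrin α8β1, stood at 129 to 265 CPM against 11.7 to 72.1 CPM. Auts2 stood at 53.7 to 99.1 CPM against 2.35 to 12.5 CPM. The same side held more Pdzrn3, Zmat4, Dock8, Pld5, Bnc2, Ifi204, Cacna2d3, Arhgap6, Adam12, Runx2, Hivep3 and Tenm3. Lymphatic surface and secreted markers lay wholly on the Lyve1-high side more often than on the other. Of 20 such markers, 8 (Mmrn1, Reln, Klhl4, Nts, Cp, Lbp, Cd9 and Fgl2) lay there and 1 (Mrc1) on the Lyve1-low side. Over all genes these shares were 2.57% and 2.61%. Mmrn1 and Reln belong to the rule. Prox1 and Flt4, also of the rule, differed less. Prox1 averaged 762 ± 56.5 CPM on the Lyve1-high side and 875 ± 80.7 CPM on the other, and Flt4 averaged 1051 ± 113 and 1026 ± 68.1 CPM.

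**Figure D2:**
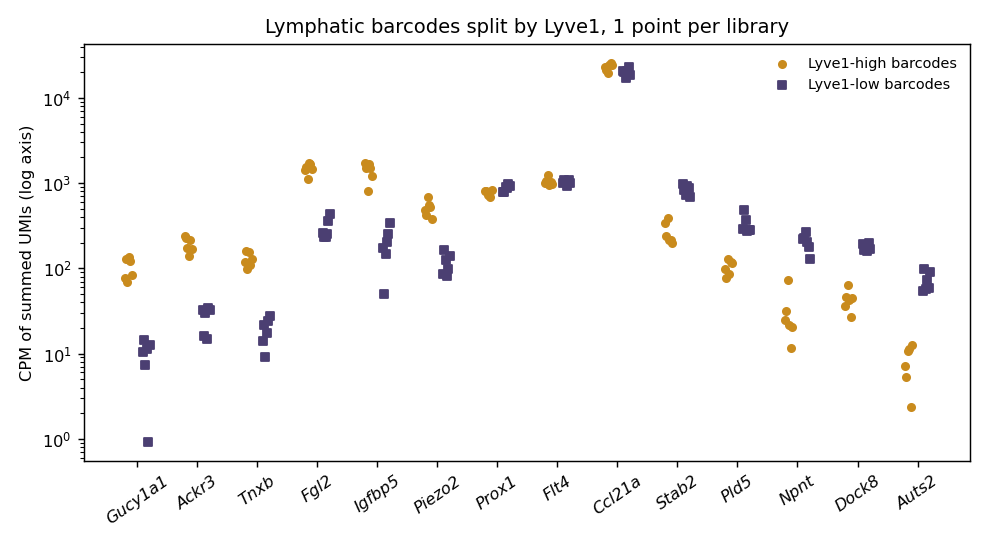
Level of 14 genes (CPM, log axis) in Lyve1-high and Lyve1-low lymphatic barcodes, 1 point per library. Gucy1a1, Ackr3, Tnxb, Fgl2, Igfbp5 and Piezo2 lie higher on the Lyve1-high side and Stab2, Pld5, Npnt, Dock8 and Auts2 on the other, while Flt4 overlaps.

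The first comparison between the groups was that of the targeted gene. Cdkn2a encodes p16, whose high-expressing cells the toxin was meant to remove. Lymphatic sums held 14, 20 and 15 Cdkn2a UMIs where the label was p16-DTR (4.93, 8.60 and 5.10 CPM) and 0 UMIs in each library labelled control. Pooled over the libraries labelled p16-DTR, the level was 6.04 CPM, 15.1-fold a floor of 3 UMIs pooled over the control group (0.399 CPM). This ratio ignores the spread between libraries and the counting error of the p16-DTR UMIs, so it is not a lower bound. The gene was not called (edgeR quasi-likelihood test, Benjamini-Hochberg adjusted p = 0.0534). This direction is opposite to that of removal, so the libraries are named by their labels throughout. The Cdkn2a entry counts both products of the locus, p16 and ARF. The call passed without the first library labelled p16-DTR (edgeR adjusted p = 0.0379), and without any other 1 library it did not (up to 0.214). In the venous gate Cdkn2a was called higher (4.70, 4.13 and 3.71 against 0, 0.974 and 0.0818 CPM; edgeR adjusted p = 0.0387). In blood endothelium as a whole, which contains that gate, it was not called (7.86, 9.04 and 6.97 against 3.86, 5.90 and 7.47 CPM; edgeR adjusted p = 0.214). In all kept barcodes except the lymphatic ones Cdkn2a stood at 7.12, 8.57 and 7.33 CPM against 1.16, 2.62 and 2.87 CPM, without overlap. The tdTomato entry held 0, 1 and 2 UMIs in libraries labelled p16-DTR and 0 in those labelled control, and in all kept barcodes except the lymphatic ones it stood at 0.317, 0.249 and 0.309 CPM against 0 in each control library. By the genotypes given, both groups carry the engineered p16-CreERT2 allele. Whether Cdkn2a UMIs came from the native gene or from that allele cannot be told from the counts. An exchange of group labels was not tested. In lymphatic sums Hbegf did not pass the test, on 36 against 26 UMIs (log2 fold change 0.35 ± 0.43 SE, edgeR adjusted p = 0.813). In blood endothelium Hbegf was apart and lower, at 23.7 to 25.7 CPM in libraries labelled p16-DTR against 37.5 to 50.1 CPM. The venous gate held 21.3 to 27.9 against 42.4 to 49.9 CPM. All kept barcodes except the lymphatic ones, both of these included, held 14.9 to 15.8 against 17.5 to 24.3 CPM.

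Cells were thinned to 5000 UMIs to compare shares of barcodes with a UMI, which left out 58 of the barcodes labelled p16-DTR and 40 of those labelled control. Cdkn2a was then found in 2.37%, 3.57% and 3.55% of lymphatic barcodes labelled p16-DTR and in 0 of 465 labelled control, which allows a share of up to 0.645% over the pooled barcodes and of up to 1.54%, 2.50% and 2.00% in the single libraries. Without the first control library the pooled limit was 1.11%. Without thinning it was found in 38 of 536 barcodes labelled p16-DTR, a mean of 7.10%. In neutrophils the thinned share averaged 0.925% in libraries labelled p16-DTR and 0 in those labelled control. Whether neutrophils made these transcripts themselves was not tested. Median depths before thinning were 8955.5 to 11181 UMIs in neutrophils and 13482 to 14047 UMIs in lymphatic barcodes. In blood endothelium it averaged 2.54% and 1.18%. The exact two-sided permutation test over libraries gave p = 0.1, the smallest that 3 against 3 can give, and 0.2 adjusted over the 4 genes tested this way.

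Lyve1 detection lay lower in each library labelled p16-DTR than in each labelled control, without passing a test. The thinned shares were 53.8%, 64.3% and 55.0% there and 73.3%, 70.8% and 78.7% in the libraries labelled control, without overlap (exact permutation p = 0.1, adjusted 0.2). Thinned neutrophils held a Lyve1 UMI in 2.82% and 1.78% of barcodes. Lyve1-high barcodes made up 32.2%, 39.2% and 23.5% of the members labelled p16-DTR and 40.1%, 42.0% and 37.7% of those labelled control. In lymphatic sums, Lyve1 stood at 1121, 1491 and 867 CPM against 1472, 1855 and 1466 CPM, so the groups overlapped (log2 fold change -0.48 ± 0.17 SE, adjusted p = 0.318). Fewer Lyve1-high cells and less Lyve1 RNA per cell cannot be told apart in these sums. Foxc2 was found in 12.4%, 6.43% and 14.2% against 7.69%, 11.7% and 10.0% of thinned barcodes (exact permutation p = 0.7), and Cldn11 in 2.33 ± 0.542% against 2.91 ± 0.740% (exact permutation p = 0.3). Cldn11 detection was apart with a stricter gate (2.02% against 4.33%) and without thinning (5.08% against 7.70%; exact permutation p = 0.1 each).

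The lymphatic share of endothelial barcodes was 4.36%, 3.77% and 3.99% in libraries labelled p16-DTR and 5.91%, 3.05% and 3.68% in those labelled control. The lowest and highest values both belonged to the control group. The difference of -0.17 percentage points was within this spread (exact permutation p = 1). It turned to 0.674 percentage points without the first control library, in which blood endothelium was 29.7% of barcodes without Ptprc against 42.3% to 54.7% in the others. Of all barcodes without Ptprc, lymphatic ones were 2.08 ± 0.182% against 1.67 ± 0.170% (SD, n = 3 and 3), without overlap (exact permutation p = 0.1).

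Across the transcriptome, the main fit called few genes between the groups in lymphatic endothelium. Of 11033 genes tested on summed UMIs, 8 were called lower (0.0725%) and 2 higher (0.0181%) in the libraries labelled p16-DTR, with the edgeR quasi-likelihood test at a Benjamini-Hochberg adjusted p under 0.05. At an unadjusted p under 0.05 there were 1284. Groups did not overlap in CPM for 7.95% of genes in the lower and 8.61% in the higher direction. No gene passed without the third library labelled p16-DTR or without any 1 control library (944 to 1138 genes at an unadjusted p under 0.05), whereas 98 passed without the first library labelled p16-DTR (59 higher and 39 lower) and 12 without the second. The balance of directions was not stable either. DESeq2 on all libraries called 102 (58 higher and 44 lower), of which 6 were among the 10, and gave no adjusted p for the other 4 (Gm45213, Casr, Gm14964 and Edil3).

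The smallest p belonged to Colec12, a scavenger receptor of the collectin family (chromosome 18, 9707595 to 9882644, plus strand, mm10). It stood at 199, 215 and 192 CPM in libraries labelled p16-DTR and at 371, 333 and 324 CPM in those labelled control. Every library labelled p16-DTR lay below every control library (log2 fold change -0.78 ± 0.091 SE, edgeR adjusted p = 0.0197). Colec12 was also called lower in the venous gate (log2 fold change -0.70, edgeR adjusted p = 0.0204) but not in blood endothelium as a whole (log2 fold change -0.52, edgeR adjusted p = 0.134).

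Casr, the calcium-sensing receptor (chromosome 16, 36493696 to 36562141, minus strand), showed the largest fall among the calls. It stood at 5.98, 6.02 and 3.74 CPM against 18.9, 21.2 and 22.9 CPM (log2 fold change -2.02 ± 0.25 SE, edgeR adjusted p = 0.0197). Blood endothelium held almost none, with a mean of 0.0156 and 0.00634 CPM. Within lymphatic barcodes Casr lay mainly on the Lyve1-high side, where it averaged 10.2 CPM in libraries labelled p16-DTR and 44.6 CPM in those labelled control. It was the 1 gene called in a fit of Lyve1-high barcodes alone (edgeR adjusted p = 0.0196), and it was too low to be tested in Lyve1-low ones.

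Edil3, a secreted integrin ligand, and Nr6a1, an orphan nuclear receptor, were the genes called higher. Edil3 (chromosome 13, 88821472 to 89323223, plus strand) stood at 27.8, 46.4 and 30.3 CPM against 12.6, 8.27 and 11.3 CPM (log2 fold change 1.64 ± 0.24 SE, edgeR adjusted p = 0.0414). It averaged 48.4 against 14.4 CPM in Lyve1-low barcodes and 7.82 against 5.63 CPM in Lyve1-high ones. Blood endothelium held more Edil3, at 134 to 215 CPM, and the lymphatic library with the most Edil3, the second labelled p16-DTR, also held the most aerocyte markers (569 CPM against at most 210 CPM in the others). Without barcodes rich in blood endothelial Hpgd, Sema3c, Flt1 and Foxf1, the Edil3 log2 fold change was 1.83 (edgeR adjusted p = 0.011). That filter was chosen after seeing the data and used none of the aerocyte markers. The part of aerocyte RNA in the Edil3 difference was not tested. Nr6a1 (chromosome 2, 38723370 to 38927688, minus strand) stood at 151, 153 and 175 CPM against 83.7, 96.2 and 98.4 CPM (log2 fold change 0.77 ± 0.11 SE, edgeR adjusted p = 0.034). In each gene the 3 libraries labelled p16-DTR lay above the 3 labelled control.

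**Figure D3:**
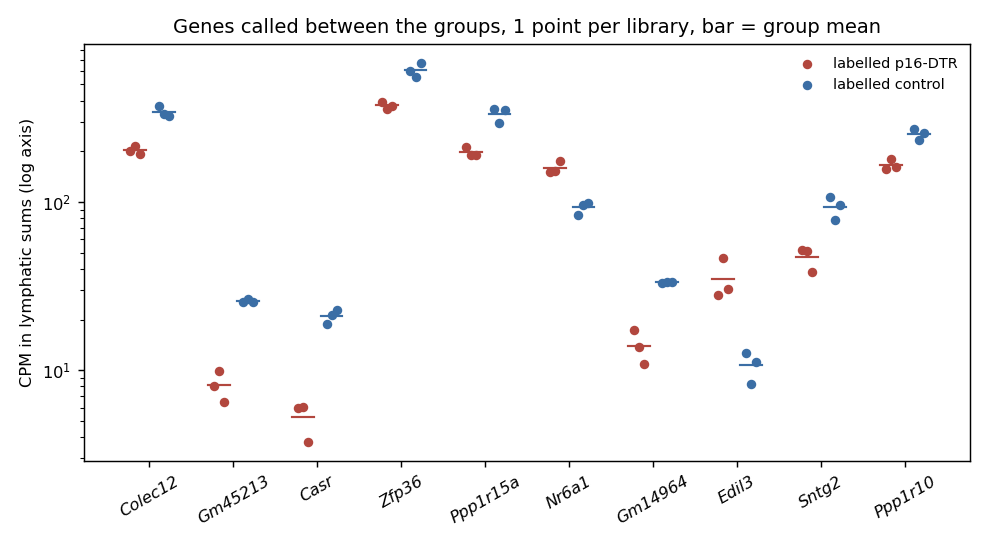
CPM (log axis) of the 10 called genes in each lymphatic library, with a bar at the mean of each group of 3. Nr6a1 and Edil3 lie higher in libraries labelled p16-DTR and the other 8 lower, with no overlap of the groups.

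The remaining calls were lower in the libraries labelled p16-DTR. Sntg2, a syntrophin, stood at 38.1 to 52.1 CPM against 78.1 to 107 CPM. Ppp1r10, a nuclear regulator of protein phosphatase 1, stood at 156 to 180 CPM against 232 to 270 CPM, and in the venous gate it was called lower too (edgeR adjusted p = 0.038). With library size as the scaling, neither Sntg2 nor Ppp1r10 was called (edgeR adjusted p = 0.0557 for each). Gm14964, annotated as antisense, stood at 10.9 to 17.2 CPM against 33.0 to 33.6 CPM. Gm45213 (chromosome 7, 66043602 to 66062271, plus strand) stood at 6.46 to 9.89 CPM against 25.4 to 26.4 CPM. That annotation overlaps the end of Pcsk6 (65861734 to 66050386) on the same strand, so the source of its reads is uncertain. Pcsk6 itself was not called (log2 fold change -0.38 ± 0.13 SE, edgeR adjusted p = 0.305).

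Zfp36 and Ppp1r15a, the last 2 calls, are stress and immediate early genes, of which Zfp36 is in the list described below and Ppp1r15a is not. Such genes are switched on within minutes by serum, stretch or tissue dissociation. Their promoters are shown because both genes were called lower. The lines give the 250 bases before the transcription start, from RefSeq on GRCm38.p6, all on the minus strand: Zfp36 at chr7:28379229-28379478, Ppp1r15a at chr7:45526269-45526518 and, from the immediate early list though not called, Btg2 at chr1:134079156-134079405. Capitals mark a CArG box, which serum response factor binds, in Zfp36, and the cAMP response element TGACGTCA in the other two.
Zfp36: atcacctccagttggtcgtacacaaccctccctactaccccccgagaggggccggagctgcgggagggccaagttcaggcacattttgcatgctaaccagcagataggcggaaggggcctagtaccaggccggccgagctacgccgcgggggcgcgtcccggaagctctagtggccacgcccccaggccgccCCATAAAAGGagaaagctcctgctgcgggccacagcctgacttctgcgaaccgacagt
Ppp1r15a: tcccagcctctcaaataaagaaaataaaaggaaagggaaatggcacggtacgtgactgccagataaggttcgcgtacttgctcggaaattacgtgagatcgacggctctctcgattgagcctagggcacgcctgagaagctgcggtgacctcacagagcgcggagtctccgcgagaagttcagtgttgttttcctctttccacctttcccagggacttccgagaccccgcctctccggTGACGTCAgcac
Btg2: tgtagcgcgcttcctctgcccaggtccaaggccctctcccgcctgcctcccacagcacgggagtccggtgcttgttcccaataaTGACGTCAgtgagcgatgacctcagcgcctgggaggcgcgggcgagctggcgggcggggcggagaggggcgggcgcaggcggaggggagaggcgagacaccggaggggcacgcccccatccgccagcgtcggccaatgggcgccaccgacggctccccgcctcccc
Over all 32851 promoter windows of 250 bases, searched on both strands, 1.55% held TGACGTCA and 1.47% a CArG box. Of the 20 genes of the immediate early list with a window, 3 (Btg2, Dusp1 and Maff) held the first and 2 (Egr2 and Zfp36) the second. A match is a run of letters, not a bound site. In the annotation used for the gene positions given here, Zfp36 starts at 28380253, so its window lies within that annotated gene.

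Zfp36 encodes tristetraprolin, which destabilises cytokine mRNAs. It stood at 394, 357 and 370 CPM in libraries labelled p16-DTR and at 601, 553 and 669 CPM in those labelled control (log2 fold change -0.72 ± 0.093 SE, edgeR adjusted p = 0.0197). Ppp1r15a, the GADD34 phosphatase subunit of the stress response, stood at 213, 191 and 189 CPM against 356, 293 and 350 CPM (log2 fold change -0.77 ± 0.1 SE, edgeR adjusted p = 0.0197). In both, all 3 libraries labelled p16-DTR lay below all 3 controls. Both were called lower in the venous gate as well, with log2 fold changes of -0.67 for Zfp36 (edgeR adjusted p = 0.0171) and -0.84 for Ppp1r15a (edgeR adjusted p = 0.00664).

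The list of immediate early and dissociation genes, chosen with earlier results of these data known, was described next. Of 23 members tested, 1 was called lower (Zfp36), beside 0.0725% of all genes, and none higher. The groups did not overlap for 14, all lower, beside 7.95% of all genes in that direction. The median log2 fold change was -0.40, beside -0.0038 over all genes. Egr1, a zinc finger factor, stood at 1627, 1081 and 1531 CPM against 2685, 2222 and 2377 CPM (edgeR adjusted p = 0.0678). Junb, a component of AP-1, stood at 1272 to 1576 CPM against 1985 to 2354 CPM (edgeR adjusted p = 0.0678), and Btg2, an antiproliferative gene, at 524 to 657 CPM against 815 to 1012 CPM (edgeR adjusted p = 0.0924). Fos, Jun and Dusp1 had log2 fold changes of -0.28, -0.30 and -0.29, with edgeR adjusted p of 0.375, 0.300 and 0.287.

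The same sums were taken in the other barcodes. Summed over the list, lymphatic sums held 15588, 14316 and 15852 CPM in libraries labelled p16-DTR and 18384, 18086 and 22034 CPM in those labelled control. Blood endothelium held 10578.5 to 11649.5 CPM against 12981 to 16409 CPM, the venous gate 13123 to 15224 CPM against 18059 to 20216 CPM, and all kept barcodes except the lymphatic ones, blood and venous endothelium included, 11312 to 11896 CPM against 12406 to 14532 CPM. The groups were apart in each of these 4 sets, which come from the same libraries and of which the last 3 share barcodes. Since the list was chosen with earlier results of these data known, the sums are a description. Ppp1r15a was called lower in blood endothelium too (log2 fold change -0.62, edgeR adjusted p = 0.0431). These genes respond to handling of the tissue, whose part in the result was not tested.

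**Figure D4:**
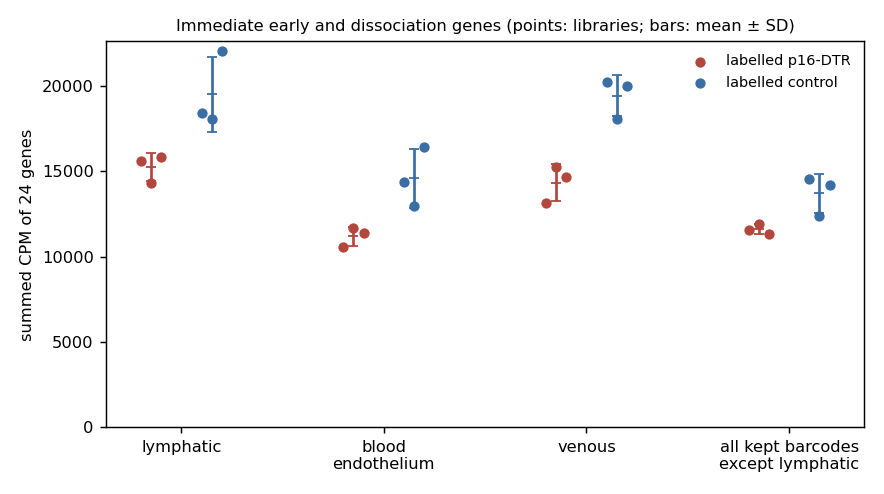
Summed CPM of 24 immediate early and dissociation genes per library, with mean ± SD of each group of 3, in lymphatic, blood and venous endothelium and in all kept barcodes except the lymphatic ones, which include the other two. In every set the 3 libraries labelled p16-DTR lie below the 3 labelled control.

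The other 23 lists held no called gene, beside 0.0725% of all genes called lower and 0.0181% called higher. Among 15 lymphatic transcription factors and 21 surface and secreted markers, none was called. Itga9 stood at 842, 891 and 924 CPM in libraries labelled p16-DTR and at 675, 698 and 649 CPM in those labelled control, apart but not called (edgeR adjusted p = 0.122). Fgl2, which follows Lyve1 among the members, stood at 613, 757 and 456 CPM against 828, 933 and 813 CPM (edgeR adjusted p = 0.234). Ccl21a and Pdpn had log2 fold changes of -0.18 and -0.15 and overlapping groups.

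In the list of cell cycle arrest and p53 genes, 4 of 18 were apart and higher and 6 apart and lower, beside 8.61% and 7.95% of all genes, the first including Cdkn2a and the second Btg2. Cdkn1a did not separate (175 to 240 against 187 to 215 CPM). Among glucocorticoid-induced genes, 4 of 17 were apart and higher, beside 8.61% of all genes, and 2 apart and lower, near the 7.95% of all genes. Fkbp5, a co-chaperone of the glucocorticoid receptor, stood at 320, 280 and 336 CPM against 97.5, 192 and 200 CPM (edgeR adjusted p = 0.151). Zbtb16 stood at 180 to 228 CPM against 63.9 to 148 CPM (edgeR adjusted p = 0.188). Among 15 heat shock genes, 4 were apart and higher and 1 apart and lower, beside 8.61% and 7.95%. Summed, they stood at 4666, 6016 and 4317 CPM in libraries labelled p16-DTR and at 4260, 4164 and 4288 CPM in those labelled control. These sums were apart, with the second library labelled p16-DTR the highest. In blood endothelium the sums overlapped (3159 to 4877 against 3171 to 3456 CPM).

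Of 4 cold-inducible genes, 2 were apart and lower, beside 7.95% of all genes here and in the next lists. Cirbp, the RNA-binding protein of the cold response, stood at 46.0 to 60.2 CPM against 74.6 to 99.3 CPM (edgeR adjusted p = 0.117). Of 19 NF-κB and inflammation genes, 4 were apart and lower and none higher. Of 24 extracellular matrix genes, 3 were apart and lower, among them the fibroblast genes Col1a2 and Dcn, and 1 higher, counts near those over all genes. The higher one was Sparc, at 694 to 732 CPM against 470 to 553 CPM (edgeR adjusted p = 0.0924). No more than 3 members of any remaining list were apart in 1 direction, beside 8.61% (higher) and 7.95% (lower) of all genes. They included complement, with 2 of 9 apart and lower. Those lists covered VEGF-C signalling, leukocyte trafficking, junctions, angiopoietins, TGF-β and BMP, Notch, lipid handling, the senescence secretome, interferon response, MHC classes I and II, EGF ligands, complement and the clock.

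Another 10 genes completed the set named for this comparison. They had the smallest unadjusted p among genes with groups apart, and none passed the threshold. Their log2 fold changes were negative for Pgm5, Rabgef1, Nup210l, Junb and Il7 and positive for Cdkn2a, Ggct, Ccnd2, Pdpk1 and Pdia6. Il7 stood at 107, 110 and 87.7 CPM against 155, 159 and 150 CPM (log2 fold change -0.63 ± 0.11 SE, edgeR adjusted p = 0.0678). Ccnd2, a D-type cyclin, stood at 145, 194 and 226 CPM against 109, 94.6 and 98.8 CPM (edgeR adjusted p = 0.0678). Pdpk1 stood at 107 to 115 CPM against 64.8 to 76.0 CPM, and in blood endothelium Pdpk1 was called higher (log2 fold change 0.62, edgeR adjusted p = 0.0208). Pgm5 was called lower there (log2 fold change -1.62, edgeR adjusted p = 0.0431), and the others were not called. In the venous gate Pgm5, Rabgef1, Nup210l, Junb, Cdkn2a, Pdpk1 and Pdia6 were called with the same signs as in lymphatic sums. Ggct, Ccnd2 and Il7 were not called in that gate.

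Markers of other cells in the lymphatic sums overlapped between the groups in all lists but that of fibroblasts. Fibroblast markers were apart, at 40.1 to 77.4 CPM in libraries labelled p16-DTR and 82.1 to 122 CPM in those labelled control, with 6 of 7 above 0 and Pdgfra at 0 by the rule. Blood endothelial markers stood at 2293 to 3136 CPM, with a mean of 2541 against 14146 CPM in blood endothelium, and aerocyte markers at 169 to 569 CPM, the highest in 1 library labelled p16-DTR. Smooth muscle and pericyte markers reached 211 CPM in 1 library labelled p16-DTR against at most 9.31 CPM in the controls. Platelet markers reached 152 CPM in 1 control library. Airway epithelial markers stood at 92.2 to 156 CPM, with 5 of 6 above 0 and Krt5, an airway basal cell gene, at 0. In blood endothelium the airway markers averaged 153 CPM. Surfactant and other alveolar type 2 markers stood at 75.5 to 258 CPM in lymphatic sums and averaged 101 CPM in blood endothelium. Leaving out the barcodes rich in Hpgd, Sema3c, Flt1 and Foxf1, a choice made after seeing the data, left 1007 barcodes, and all 10 calls remained among 32. Leaving out barcodes with 2 or more UMIs of Gpihbp1, Plvap, Car4 and Ednrb together left 128 barcodes and 3569 genes tested, and of the 6 calls still tested 1 remained among 4. The part of the other RNAs in the results was not tested.

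The group difference was then compared between lymphatic and blood endothelium of the same libraries. Of 16174 genes, 7 were called (0.0433%) for a difference of effect (edgeR quasi-likelihood test with library as a block, adjusted p = 0.0497 for each). For Bcar3, Hes1, Il7 and Lepr the log2 effect was lower in lymphatic than in blood endothelium, and for Ggct, Atp2b4 and Pdpn it was higher.

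Il7, whose lymphatic values are given above, stood at 3.87 to 4.52 CPM against 3.20 to 4.04 CPM in blood endothelium, a difference of effect of -0.88 ± 0.13 SE on the log2 scale. Hes1, a Notch target, stood at 389, 299 and 244 CPM against 417, 474 and 351 CPM in lymphatic sums and at 186 to 244 CPM against 159 to 191 CPM in blood endothelium. Bcar3, an adaptor of integrin signalling, stood at 33.5 to 44.9 CPM against 60.4 to 66.7 CPM in lymphatic sums and at 37.0 to 44.0 CPM against 30.4 to 38.7 CPM in blood endothelium. Lepr, the leptin receptor, stood at 153 to 197 CPM against 116 to 148 CPM in blood endothelium, and its lymphatic values overlapped (97.6 to 157 against 149 to 175 CPM). The 4 differences of effect were -0.71 to -0.91 on the log2 scale.

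Ggct, a glutathione cycle enzyme, stood at 102, 151 and 146 CPM against 69.5, 46.0 and 66.7 CPM in lymphatic sums and at 4.81 to 4.91 CPM against 5.05 to 6.30 CPM in blood endothelium (difference of effect 1.24 ± 0.19 SE on the log2 scale). Pdpn stood at 309 to 357 CPM against 290 to 412 CPM in lymphatic sums. In blood endothelium it stood at 0.548 to 0.719 CPM against 1.07 to 1.91 CPM (difference of effect 1.15 ± 0.17 SE on the log2 scale). In all kept barcodes except the lymphatic ones Pdpn stood at 15.5 to 20.6 CPM against 22.3 to 38.0 CPM, and the part of free RNA was not tested. Atp2b4, a calcium pump of the plasma membrane, stood at 271 to 348 CPM against 258 to 287 CPM in lymphatic sums and at 10.6 to 15.8 CPM against 20.6 to 25.4 CPM in blood endothelium. No gene was called with library size as the scaling (edgeR, 1393 at an unadjusted p under 0.05), without the third library labelled p16-DTR or without any 1 control library (edgeR, 1036 to 1210). DESeq2 called 75, and edgeR called 76 without the first library labelled p16-DTR and 12 without the second.

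Lyve1 had effects of opposite sign in the 2 endothelia, and the difference did not pass this test. Its lymphatic log2 fold change was -0.48, and in blood endothelium it stood at 1245, 1018 and 1068 CPM in libraries labelled p16-DTR and at 718, 827 and 977 CPM in those labelled control, which were apart (log2 fold change 0.46, edgeR adjusted p = 0.0967). The difference of effect was -0.95 ± 0.22 SE on the log2 scale (edgeR adjusted p = 0.21).

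**Figure D5:**
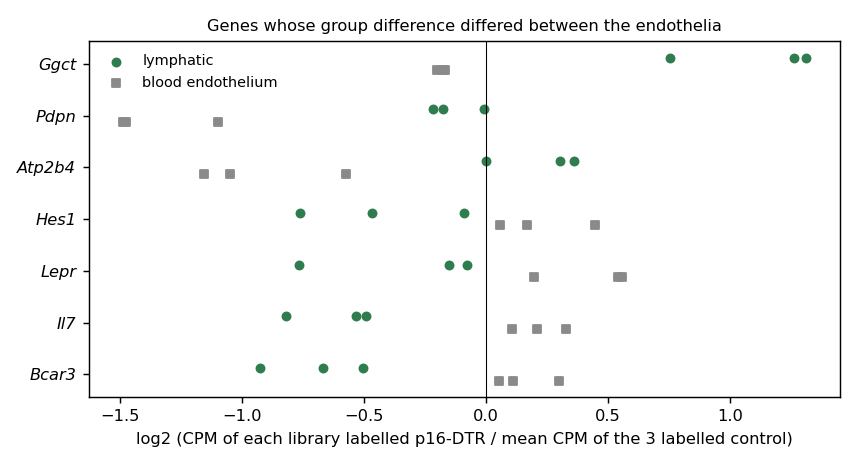
For 7 genes, log2 ratio of each library labelled p16-DTR to the mean of the 3 labelled control, in lymphatic (circles) and blood endothelium (squares). For Ggct, Il7 and Bcar3 the lymphatic points lie away from 0, and for Pdpn and Atp2b4 the blood endothelial points do. For Lepr, Bcar3, Hes1 and Il7 every blood endothelial point lies above 0.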

How the data were processed

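Raw UMI counts per gene and barcode were deposited by the authors as 1 filtered matrix per library, made with Cell Ranger 8.0.1 on mm10, per the submitters' processing notes. The annotation used for counting and any removal of doublets are not given in the sources used here, and no doublet caller was run here. Barcodes under 500 genes or 1000 UMIs, or over 15% of UMIs from mitochondrial genes, were left out, and the lymphatic rule was applied to raw counts. The members, gene lists and tests were chosen with earlier results of these data known.

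Counts were summed per library over the lymphatic barcodes and tested with edgeR 4.0.16 (filterByExpr, TMM scaling, quasi-likelihood test, Benjamini-Hochberg adjustment over all genes tested, threshold 0.05) in R 4.3.3. The difference of effect used lymphatic and blood endothelial sums with library as a block. Shares were compared by exact two-sided permutation tests over the 6 libraries, after thinning to 5000 UMIs for shares of barcodes with a UMI. Groups called apart do not overlap in CPM. Limits for a count of 0 used 3 counts and cover counting error only. The fits of the group difference and of the difference of effect were run on simulated counts. Those counts held no library effect shared by the cell types, so they did not test the library block. Alternatives included DESeq2 1.42.0, other scalings, filters and gates, and each library left out.

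The named genes were the genes of the rule, Ccl21a, Lyve1, Pdpn, Cdkn2a, Cdkn1a, Hbegf and tdTomato. For the group comparison, up to 20 called genes with groups apart were named, and where fewer than 15 were called, those with the smallest unadjusted p and groups apart filled the number to 20. Each list gave its called genes and up to 4 with the highest CPM. Against blood endothelium, the 25 and 15 largest ratios were taken, and for the difference of effect up to 10 called genes. Other genes were chosen after their values were seen. Some genes that these rules name are not reported here.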

Additional observations from a re-analysis of the deposited data

Results flagged for a closer look

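The genes below had a group effect that differed between lymphatic and blood endothelium (edgeR quasi-likelihood test with library as a block, adjusted p = 0.0497 for each). The log2 effect in lymphatic minus that in blood endothelium was 1.09 for Atp2b4, 1.24 for Ggct and 1.15 for Pdpn. It was -0.82 for Lepr, -0.91 for Bcar3, -0.71 for Hes1 and -0.88 for Il7.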

How the results depend on the processing

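The number of called genes was 10 and depended on the settings. It was 102 with DESeq2, 503 with no filter on low counts (294 higher and 209 lower) and 8 with library size as scaling. The replicate block gave 0 (edgeR, 1272 genes at an unadjusted p under 0.05). Without barcodes holding 2 or more UMIs of Gpihbp1, Plvap, Car4 and Ednrb together the number was 4 (1 of the 10). It was 4 with equal barcodes, 26 without the top 5% of UMIs and 32 without blood gene barcodes. Lyve1-high barcodes gave 1 and Lyve1-low ones 11, and leaving out 1 library gave 0 to 98. The difference of effect gave 14 genes against venous endothelium, 2 of them among the 7, 0 with library size as scaling, 261 with no filter, 75 with DESeq2 and 0 to 76 with 1 library left out. Replicate numbers did not pair the samples (correlations of deviations 0.0548, -0.0902 and 0.0016). With the replicate block, edgeR's log2 difference in lymphatic share was -0.04, against -0.05 without it, and neither passed.

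The difference in lymphatic share of -0.17 percentage points turned to 0.0950 over all kept barcodes, to 0.410 over those without Ptprc, and ranged from -0.756 to 0.674 with 1 library left out. For Foxc2 the difference in detection turned to -1.20 without thinning, to -1.14 at 3000 UMIs and ranged from -0.359 without the third library labelled p16-DTR to 3.53 without the second, and for Cldn11 to 0.358 at 3000 UMIs. Nup210l turned to a log2 fold change of 0.18 without barcodes holding Gpihbp1, Plvap, Car4 or Ednrb, which left 128 barcodes. The cause was not tested.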
